A study of Mus musculus with 6 samples.

Results

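The non-cycling muscle stem and progenitor cells described here were cells with RNA of at least 2 of 6 myogenic genes (*Pax7*, *Myf5*, *Myod1*, *Cdh15*, *Chrna1*, and *Fgfr4*). They held no RNA of *Pdgfra*, a marker of fibro-adipogenic progenitors (FAPs), or of *Ptprc*, which marks leukocytes, and they held RNA of fewer than 2 of 6 genes of dividing cells (*Mki67*, *Top2a*, *Cdk1*, *Birc5*, *Cenpf*, and *Ccna2*). This rule kept 283 of 11207 cells, or 2.53%, and these 283 cells are called members below. Members were thus chosen by measured UMIs (unique molecular identifiers, each 1 captured RNA molecule) of these 14 genes. The cells came from tibialis anterior muscle (TAM) of male B6;129 mice aged 3 to 5 months with the allele Gt(ROSA)26Sor<tm1(Fucci2aR)Jkn, a Cre-dependent cell cycle reporter, and by the study's methods the mice of all 6 groups were negative for Cre. Hypothyroid mice ate an iodine-poor diet with 0.15% w/w propylthiouracil (PTU), a blocker of thyroid hormone synthesis, from 3 weeks before injury onwards, and control mice ate a matched diet. TAM was taken uninjured or at 5 or 14 days after an injection of cardiotoxin (50 μg/ml), a venom toxin that destroys myofibers (5 and 14 dpi). Cells of 3 mice were pooled into each of the 6 droplet libraries, 1 per diet and day, so a difference between libraries could not be tested against the spread between mice.

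Skeletal muscle stem cells (MuSCs) lie between the myofiber and its basal lamina and are marked by the transcription factor PAX7. After injury they leave quiescence, express *Myf5* and *Myod1*, divide, and then either return to the niche or switch on *Myog*, leave the cell cycle, and fuse into new myofibers that pass through embryonic and neonatal myosins. Thyroid hormone acts in muscle mainly through the receptor encoded by *Thra* and is made active inside cells by the deiodinase encoded by *Dio2*.

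Members made up a larger share of the hypothyroid than of the control library at each day. In control muscle there were 13 members among 1152 cells before injury (1.13%, 95% Clopper-Pearson interval 0.602% to 1.92%), 52 of 2428 at 5 dpi (2.14%, 1.60% to 2.80%), and 53 of 3294 at 14 dpi (1.61%, 1.21% to 2.10%). In hypothyroid muscle there were 12 of 528 (2.27%, 1.18% to 3.94%), 105 of 2155 (4.87%, 4.0% to 5.87%), and 48 of 1650 (2.91%, 2.15% to 3.84%). The hypothyroid share was 2.28 times the control share at 5 dpi (1.62 to 3.24) and 1.81 times at 14 dpi (1.20 to 2.72), where it was 1.62 (0.811 to 3.02) without cells that also stood in another file. Before injury the ratio was 2.01 with an interval that held 1 (0.840 to 4.79), and it was 0.955 when all columns of each file were used. The uninjured pools then held 21 hypothyroid and 48 control members. Some of the added columns also stand in a file of another condition, so the value of 0.955 can mix diets and days. The intervals given here, like all that follow, cover counting error only and not the spread between mice. Members were deeper than the other cells of their library, with medians of 5335, 9019, and 6691 UMIs in control and 5961, 11907, and 12468 in hypothyroid muscle. Other cells, here and below, are all cells of a library that were not members, and they include myogenic cells that the rule left out. The other cells had medians of 4575, 3758, and 3953 UMIs in control and 3598.5, 7638, and 6731 in hypothyroid muscle. After injury the hypothyroid libraries were thus the deeper ones. The rule needs detected UMIs, and the share of members was not compared at equal depth, so the part of depth in these ratios was not tested.

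**Figure D1:**
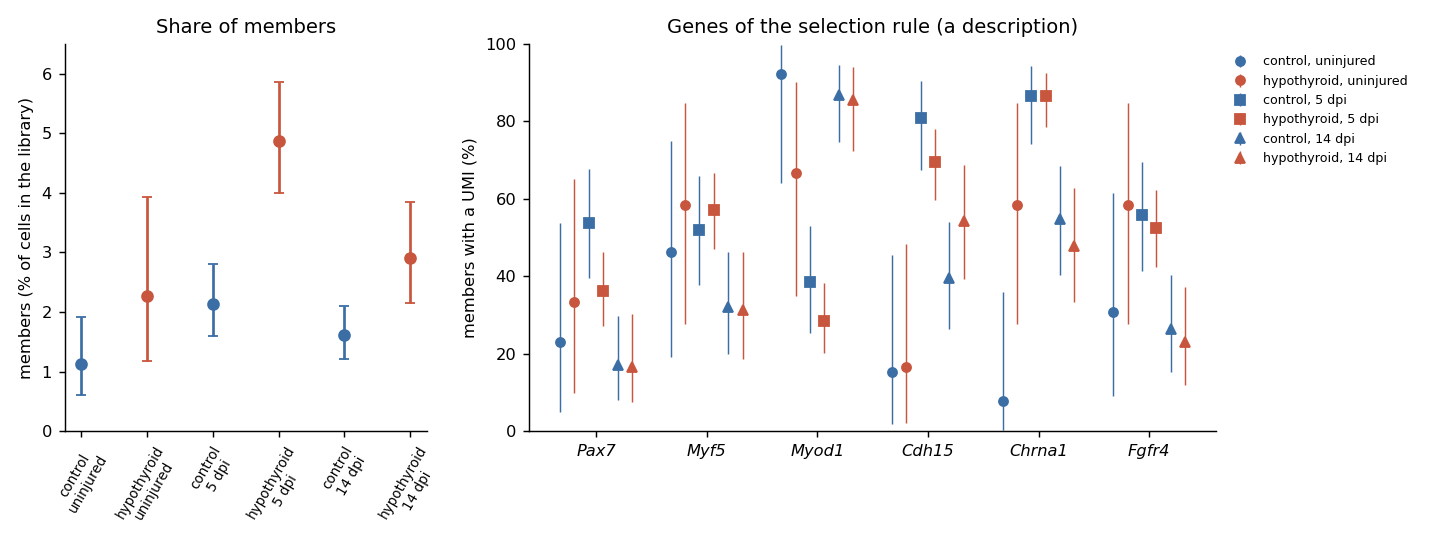
The left panel plots members as a percentage of the cells of each library, and the right panel plots the percentage of members with a UMI of each of the 6 myogenic genes of the rule, not thinned, with 95% Clopper-Pearson intervals, in control (blue) and hypothyroid (red) muscle. The share of members is highest in hypothyroid muscle at 5 dpi (4.87%), and *Myod1* is the most common rule gene before injury and at 14 dpi, *Chrna1* at 5 dpi.

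The rule genes that admitted the cells differed with the day, and since they chose the members their values are a description only. *Myod1*, the transcription factor of activated MuSCs, was found in 12 of 13 control and 8 of 12 hypothyroid members before injury, in 20 of 52 and 30 of 105 at 5 dpi, and in 46 of 53 and 41 of 48 at 14 dpi. *Chrna1*, the alpha subunit of the muscle acetylcholine receptor, took its place at 5 dpi, with 45 of 52 and 91 of 105 members, and *Cdh15* (M-cadherin) was found in 42 of 52 and 73 of 105. *Pax7* was detected in 3, 28, and 9 control members and in 4, 38, and 8 hypothyroid members at the 3 days. In *Pdgfra*-positive cells of the same libraries, which should lack it, *Pax7* was found in 0% to 0.633% of cells and *Myod1* in 0.633% to 2.30%. Of the members, 119 sat just inside the rule with exactly 2 of the 6 genes, and 239 cells that met its other terms sat just outside with 1. In control muscle before injury, 81.8% of the 11 cells just inside and 65.7% of the 35 just outside held *Des* (desmin, the intermediate filament of muscle cells), and 90.9% and 74.3% held *Myod1*.

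Markers of other cells were read in the members before any comparison. Of 7 endothelial markers, 3 or more were present in 0 members before injury, in 3 of 52 and 2 of 105 at 5 dpi, and in 17 of 53 control and 22 of 48 hypothyroid members at 14 dpi. The summed level of the 7 was 0, 342, and 3459 CPM (UMIs scaled to the same total in every pool) in control members and 0, 47.8, and 4307 CPM in hypothyroid members, against 3086 and 2108 CPM in the other cells at 14 dpi. The 14 dpi members with 3 or more endothelial markers also held *Myod1*, in 17 of 17 control and 20 of 22 hypothyroid cells, with medians of 14 and 17.5 UMIs. Whether those barcodes held more than 1 cell was not tested, and no doublets were removed. FAP markers summed to 431 to 4885 CPM in members and 20155 to 44840 CPM in the other cells, macrophage markers to at most 670 CPM and lymphoid markers to at most 15.8 CPM. Of the members, 9 of control 5 dpi and 35 of hypothyroid 14 dpi also stood, with the same barcode and values, in a file of another condition, so that 13 of the 48 hypothyroid members of 14 dpi were found in 1 file alone. The labels do not say which file holds these cells rightly, so the diet or day of the copied members is uncertain. Every ratio that includes them is uncertain with it, be it of control members at 5 dpi or of hypothyroid members at 14 dpi. Whether the first run of barcodes in a file, which was used here, is the run of its label could not be checked either.

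Members were then set against all other cells of their own library, over the 6 libraries, for genes the rule did not use. With limma (library as a block, Benjamini-Hochberg adjusted p under 0.05 and at least 2-fold), 293 of 12436 genes were higher in members (2.36%) and 1107 lower (8.9%), and the median difference over all genes was −0.14 (log2). Genes of MuSCs bore out the myogenic part of the label: of 25 genes of a satellite cell list, 16 were higher and 3 lower, with a median difference of 1.76. These genes were not used by the rule, but they were measured in the same cells. Of 21 genes kept high in resting MuSCs, 4 were higher and 3 lower, with a median of −0.075. Of 30 differentiation genes, 6 were higher, *Myog* and *Mymk* among them, and 0 lower, with a median of 0.78. The members were thus not shown to be resting cells. *Gal*, the neuropeptide galanin, had the largest difference of the genes higher in all 6 libraries, 4.36 ± 0.33 (log2, SE, n = 6 libraries; limma adjusted p = 6.04e-05). Control members held it at 2152, 815, and 224 CPM and hypothyroid members at 1072, 317, and 222 CPM, and at 7.80 to 31.6 CPM in the other cells. *Asb5*, a muscle ankyrin repeat protein of ubiquitin ligase complexes, followed at 3.85 ± 0.19 (limma adjusted p = 1.1e-05), and *Ncam1*, a cell adhesion molecule, at 3.14 ± 0.24 (limma adjusted p = 6.04e-05). In the pools of the 6 libraries *Asb5* was at 216 to 1809 CPM in members and 15.7 to 99.5 CPM in the other cells, *Ncam1* at 209 to 668 and 19.5 to 74.5 CPM. These values are sums over cells, and overlap between single cells was not examined.

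Among the remaining genes with the largest differences were *Met*, the receptor of hepatocyte growth factor (2.42 ± 0.22), *Hs6st2*, a heparan sulfate sulfotransferase (2.39 ± 0.26), *Vcam1*, the adhesion protein by which MuSCs are often sorted (2.37 ± 0.54), *Clcf1*, a cytokine of the IL-6 family (2.47 ± 0.37), and *Erfe*, the hormone erythroferrone (2.84 ± 0.53). *Erfe* followed the day: it stood at 514, 15.6, and 131 CPM in control members and at 1072, 4.85, and 69.2 CPM in hypothyroid members, low at 5 dpi under both diets. *Sox11*, a transcription factor of progenitors, ran the other way at 27.1, 581, and 185 CPM in control members and 41.8, 148, and 305 CPM in hypothyroid members. The other genes of the first 15 were *Ankrd1*, *Iqsec3*, *Pde1c*, *Ddr1*, *Flnc*, and *Des*, at 2.34 to 3.05. The 3 satellite cell genes that were lower in members were *Cd34* (−2.58), *Dlk1* (−2.51), and *Cxcr4* (−1.55), which FAPs, vessels, or leukocytes also express. Of the Notch genes, *Notch3* (1.77) and the target *Heyl* (1.65) were higher in members, and among cell cycle regulators *Cdk6* (1.87) was higher and *Ccnd2* (−2.69) lower.

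**Figure D2:**
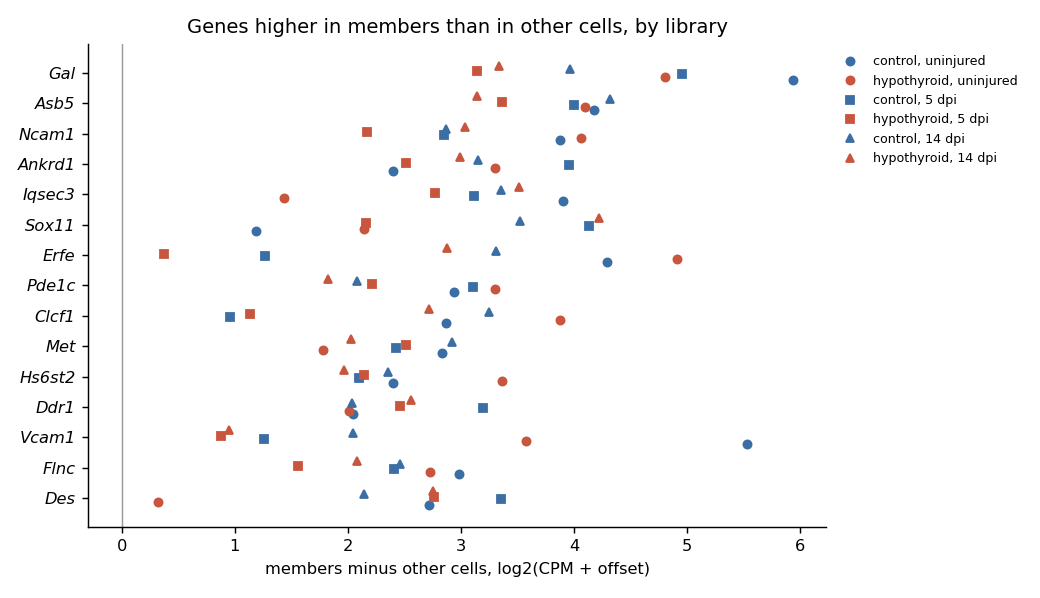
Each point is the difference between members and the other cells of 1 library, on the scale log2(CPM + offset), for the 15 genes with the largest difference among those called by limma and higher in all 6 libraries (control blue, hypothyroid red, symbols by day). All points lie above 0, with *Asb5* in a narrow range (3.14 to 4.32) and *Erfe* in a wide range (0.38 to 4.91).

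Many chemokine, matrix, and interferon genes were lower in members than in the other cells, while the secreted factors *Gal*, *Erfe*, and *Clcf1* were higher, as given above. Of 24 chemokine and cytokine genes, 14 were lower and 1 higher, with *Ccl2*, which draws monocytes, at −4.45 and *Tnfrsf12a*, the receptor of TWEAK, at 1.13. Of 30 matrix and niche genes, 14 were lower, among them *Col1a1* (−4.78), and the 4 that were higher were the surface proteins *Itga7*, *Ncam1*, *Sdc4*, and *Vcam1*. Interferon and antigen presentation genes were lower in 12 of 21, with *B2m*, the light chain of MHC class I, at −1.31, and growth factor genes in 7 of 19, with *Igf1* at −3.07. All 11 FAP and all 8 macrophage markers were lower, after cells with *Pdgfra* or *Ptprc* had been left out by the rule. Of the 7 endothelial, 33 oxidative phosphorylation, and 32 ribosomal genes, 0 passed in either direction. All 7 endothelial genes together had a median of −1.24.

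At 5 dpi the differentiation genes of the members stood far lower in the hypothyroid than in the control library. A gene was called past 2-fold when it held at least 20 UMIs in both pools of members together, its ratio of CPM was at least 2 or at most 0.5, and the exact binomial interval of the ratio left out 1. By this rule 1096 of 7899 genes were called (13.9%), 834 lower in hypothyroid members (10.6%) and 262 higher (3.32%), of which 379 in all were also called, the same way, in the other cells. Of 28 differentiation genes, 25 were lower and 0 higher, with a median log2 ratio of −2.73 against −0.23 over all genes tested. With ratios centered on the median gene the split over all genes was 512 lower and 499 higher, and 25 of the 28 differentiation genes were still called lower. Without the 9 control members that also stood in another file, 1035 genes were called, 756 lower and 279 higher. *Myog*, the transcription factor that starts terminal differentiation, held 403 UMIs in 11 of 52 control members (701 CPM) and 158 UMIs in 13 of 105 hypothyroid members (109 CPM). Its ratio was 0.156 (0.129 to 0.188), against 0.453 in the other cells. *Mymk* and *Mymx*, which encode the proteins that fuse myoblasts, had ratios of 0.0677 (0.038 to 0.114) and 0.192 (0.115 to 0.312).

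Genes of the contractile apparatus were lower as well. *Mylpf*, the fast regulatory myosin light chain, stood at 2251 CPM in control members and 89.4 CPM in hypothyroid members (ratio 0.0397, 0.0329 to 0.0476), *Acta1*, skeletal muscle actin, at 2152 and 136 CPM (0.0631, 0.054 to 0.0734), and *Ttn*, the giant spring protein titin, at 1377 and 217 CPM (0.157, 0.138 to 0.18). *Myh3*, embryonic myosin, held 193 UMIs in 7 control and 13 UMIs in 5 hypothyroid members, and *Myh8*, neonatal myosin, 80 UMIs in 3 and 0 UMIs. *Mef2c*, a transcription factor that works with the MYOD family, stood at 127 and 3.46 CPM. In the other cells the same genes gave ratios of 0.179 for *Mylpf*, 0.198 for *Acta1*, and 0.651 for *Ttn*, but 2.02 for *Myh3*, 2.7 for *Myh8*, and 3.71 for *Mymk*. The other cells at 5 dpi included 26 control and 58 hypothyroid cycling myogenic cells, and the part of myogenic cells in these ratios was not tested. *Cdkn1a*, the cell cycle inhibitor p21, was not called, at 673 and 346 CPM (0.515, 0.45 to 0.589).

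The 250 bases before and 50 after the annotated start of 3 of these genes are printed to show the letters to which the MYOD and MEF2 families and SRF are known to bind. They were copied from RefSeq on GRCm38.p6, whereas the deposited values refer to mm39. Capitals mark the E-box CAGCTG, searched on both strands, in Mylpf and Acta1, the CArG box of SRF in Acta1, and the MEF2 motif in Ttn:
Mylpf chr7:127211358-127211657 (+ strand): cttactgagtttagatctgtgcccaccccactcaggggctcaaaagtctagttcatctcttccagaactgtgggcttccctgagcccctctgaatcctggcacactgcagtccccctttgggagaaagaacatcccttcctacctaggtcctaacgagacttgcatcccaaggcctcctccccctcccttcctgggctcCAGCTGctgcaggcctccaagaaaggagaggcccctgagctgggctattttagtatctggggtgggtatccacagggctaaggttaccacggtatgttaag
Acta1 chr8:123894726-123895025 (- strand): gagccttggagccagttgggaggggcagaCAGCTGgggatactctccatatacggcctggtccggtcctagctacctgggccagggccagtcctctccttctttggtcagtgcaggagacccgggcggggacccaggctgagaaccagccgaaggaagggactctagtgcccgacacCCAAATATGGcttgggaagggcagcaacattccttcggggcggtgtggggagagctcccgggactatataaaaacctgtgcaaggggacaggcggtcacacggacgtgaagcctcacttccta
Ttn chr2:76982498-76982797 (- strand): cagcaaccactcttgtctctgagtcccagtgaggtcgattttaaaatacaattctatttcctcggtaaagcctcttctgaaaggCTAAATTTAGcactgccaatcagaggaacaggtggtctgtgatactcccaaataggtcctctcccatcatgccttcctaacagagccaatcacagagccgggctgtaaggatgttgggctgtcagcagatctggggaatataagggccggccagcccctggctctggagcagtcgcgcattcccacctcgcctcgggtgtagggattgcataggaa
Of the 25 differentiation genes lower at 5 dpi, 20 matched a RefSeq promoter, and 9 of those (45%) held CAGCTG, 5 (25%) the MEF2 motif, and 2 (10%) the CArG box, against 18.3%, 3.70%, and 1.81% of 27025 genes. The whole differentiation list, called or not, had similar shares, with 10 (40%), 6 (24%), and 2 (8%) of 25 matched genes. The shares therefore describe the list and not the genes that were lower. The window of *Myog* held none of the 3 patterns as searched. Other forms of the E-box, MEF2, and SRF motifs were not searched, so their absence from the *Myog* window was not shown. These shares are a description of letters near gene starts and not a record of binding.

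The differentiation signal sat in few members. The genes of the list summed to 14105 CPM in control members and 1990 CPM in hypothyroid members at 5 dpi, but the median member held 2101 and 1238 CPM. In control muscle the 11 members with *Myog* carried 87.6% of the list's UMIs and 1 cell carried 41.1%, whereas in hypothyroid muscle the 13 members with *Myog* carried 34.9% and the top cell 12.0%. Members with *Myog* were 21.2% of control (11.1% to 34.7%) and 12.4% of hypothyroid members (6.76% to 20.2%). After each cell was thinned to 2000 UMIs they were 8 of 50 (16%, 7.17% to 29.1%) and 9 of 103 (8.74%, 4.07% to 15.9%), so a difference in their share was not detectable at this depth. In *Pdgfra*-positive cells *Myog* was found in 0.949% and 1.62%. Within the members with *Myog*, *Ttn* stood at 4097 CPM in control and at 769 CPM in hypothyroid muscle, *Mylpf* at 6804 and 281 CPM, and *Mymk* at 569 and 79.4 CPM. *Pax7* was held by 2 of the 11 and 5 of the 13.

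Without the top member of each library, 22 of 27 genes were lower and 0 higher at 5 dpi. Without any member that held *Myog*, 7 of 19 were lower and 2 higher: *Acta1* (0.197, 0.147 to 0.262), *Mylpf* (0.211, 0.158 to 0.281), *Tnnc2*, *Tnnt3*, *Myl1*, *Ckm*, and *Chrng* remained lower, while *Tnnt2*, the troponin T of young muscle, was at 2.49 (1.36 to 5.0) and *Tnnc1* was the other gene called higher. *Ttn* then stood at 216 and 146 CPM (0.677, 0.522 to 0.884) and was no longer called. Genes of mature myofibers, some of them also in the differentiation list, summed to 6909 CPM in control members and 443 CPM in hypothyroid members and to 1604 and 299 CPM in the other cells. The part of RNA from broken myofibers in these values was not tested.

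**Figure D3:**
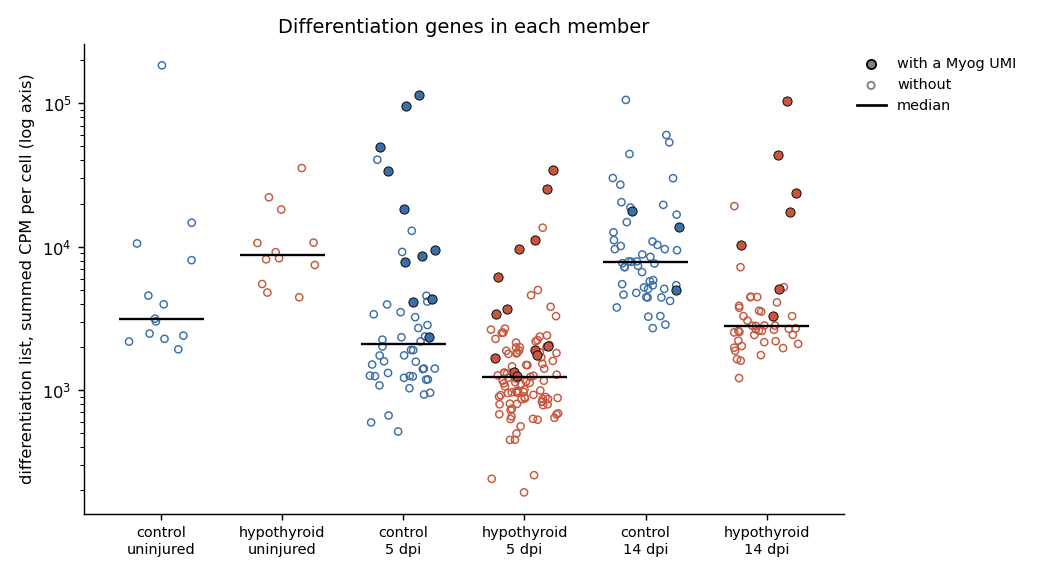
Each point is 1 member, and its height is the summed CPM of the differentiation list on a log axis, by library (control blue, hypothyroid red). Filled points hold a *Myog* UMI and lines are medians: at 5 dpi the control points with *Myog* reach 114260 CPM and the hypothyroid points 34192 CPM, while the medians are 2101 and 1238 CPM.

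At 14 dpi the list split. Of 6264 genes, 527 were called (8.41%): 187 were higher in hypothyroid members (2.99%) and 340 lower (5.43%), of which 103 in all were called the same way in the other cells. Of 26 differentiation genes, 13 were higher and 6 lower. Higher were genes of early differentiation: *Myog* held 219 UMIs in 7 of 48 hypothyroid and 59 UMIs in 3 of 53 control members (345 and 133 CPM; ratio 2.58, 1.93 to 3.51), *Tnnt2* 101 and 14 UMIs (5.02, 2.86 to 9.51), *Actc1*, the actin of heart and of forming skeletal muscle, 170 and 16 UMIs (7.40, 4.42 to 13.2), and *Mymx* 29 and 2 UMIs (10.1, 2.55 to 87.3). *Myh3* held 155 UMIs and *Myh8* 140 UMIs in hypothyroid members and 0 in control, at least 36.0-fold and 32.5-fold higher over a floor of 3 counts in the control library. Lower were genes of mature fast fibers: *Mylpf* at 766 and 2281 CPM (0.336, 0.301 to 0.375), *Ckm*, muscle creatine kinase, at 425 and 1135 CPM (0.374, 0.322 to 0.435), and *Acta1* at 1507 and 3135 CPM (0.481, 0.442 to 0.522). *Myog*, *Ttn*, *Actc1*, and *Tnnt2* had ratios under 1 in the other cells, at 0.527, 0.591, 0.129, and 0.867. Genes of mature myofibers were lower in the other cells too. Their sum there was 3837 CPM under the hypothyroid diet, against 13846 CPM under the control diet. Members held 4787 and 11755 CPM, in the same order. Of 11 such genes tested, 8 were lower in hypothyroid members, and these 8 were also called in the other cells. The part of myofiber RNA in these ratios was not tested.

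The genes of the list that were higher rested on 7 cells and, for the myosins, on 1. Members with *Myog* carried 72.9% of the list's UMIs in hypothyroid and 10.1% in control muscle, and without them 0 of 15 genes were higher and 10 lower. A single hypothyroid member with 25120 UMIs held 44.1% of the list's UMIs, 145 of the 155 *Myh3* UMIs, 131 of the 140 *Myh8* UMIs, and 348 of the 401 UMIs of *Sln* (sarcolipin, an inhibitor of the muscle calcium pump, named after its values were seen). It also held all 7 endothelial markers. Without the top member of each library 8 genes were higher and 7 lower, and without members that held 3 or more endothelial markers 7 were higher and 8 lower of 20, with *Ttn* at 0.937 (0.717 to 1.22). With all columns of each file, 1 was higher and 5 lower of 28, with *Ttn* at 0.818, *Actc1* at 0.877, and *Sln* at 0.937, and without the 35 cells that also stood in another file 8 were higher and 6 lower of 21. In the 13 members then left *Myog* held 124 UMIs (7.01, 5.10 to 9.73), *Actc1* 86, *Tnnt2* 26, and *Myh3* 4, and *Ttn* stood at 1.78 (1.34 to 2.36). *Cdkn1a* was higher as well, at 859 and 389 CPM (2.21, 1.86 to 2.64), and it was found in 41 of 48 hypothyroid and 37 of 53 control members. Without members with *Myog* it stood at 616 and 381 CPM (1.62, 1.33 to 1.97) and was no longer called.

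More genes that mark MuSCs were lower than higher in hypothyroid members after injury. Of 23 tested satellite cell genes at 5 dpi, 8 were lower and 0 higher (6 and 1 with centered ratios), and of 24 at 14 dpi, 7 were lower and 0 higher. Lower calls also outnumbered higher ones over all genes tested, with 10.6% and 3.32% at 5 dpi and 5.43% and 2.99% at 14 dpi. *Dag1*, dystroglycan, which ties the cell to laminin, stood at 27.1, 1092, and 201 CPM in control members and at 195, 225, and 255 CPM in hypothyroid members, so its peak at 5 dpi was found in control muscle (ratio 0.206, 0.18 to 0.236; 0.524 in the other cells). *Des* was at 878 and 368 CPM at 5 dpi (0.419, 0.37 to 0.474). *Chodl*, chondrolectin, a membrane lectin of MuSCs, was found in 12 of 52 control and 8 of 105 hypothyroid members (0.243, 0.142 to 0.409; 1.08 in the other cells), or in 7 of 50 and 4 of 103 after thinning to 2000 UMIs. *Heyl* was lower at both days, with ratios of 0.31 (0.215 to 0.446) and 0.256 (0.0911 to 0.637), and was also lower in the other cells at 5 dpi (0.33). At 14 dpi *Musk*, the receptor tyrosine kinase of the neuromuscular synapse (0.249, 0.108 to 0.527), *Spry1*, an inhibitor of receptor tyrosine kinases needed for the return to quiescence (0.271, 0.135 to 0.514), *Msc*, a repressor of the MYOD family (0.411, 0.264 to 0.63), and *Chrdl2* (3 against 19 UMIs) were lower. Without the cells that also stood in another file, 3 of 22 were lower and 1 higher, and *Heyl*, *Spry1*, *Musk*, and *Chrdl2* were no longer called (0.878, 0.649, 0.358, and 0.176). Of 11 Notch genes tested at 14 dpi, the receptor gene *Notch3* (0.371, 0.216 to 0.622), *Heyl*, and *Nrarp*, a feedback target (0.192, 0.0759 to 0.431), were lower and 0 higher. Without those cells only *Nrarp* was still called among 9 tested, with *Notch3* at 0.445 (0.155 to 1.05), and 1 control member held 65.5% of the 29 control *Nrarp* UMIs. Without the members with 3 or more endothelial markers, *Notch1* and *Hes1* were higher and *Notch3* lower among 5 tested. *Notch3* is also a marker of mural cells, and 4 of 6 mural markers, *Notch3* among them, were lower at 14 dpi, and the 7 markers together reached 3445 CPM in members of the control library against 1688 CPM in the hypothyroid library. Their part in these ratios was not tested. *Sdc4*, syndecan 4, kept levels of 718 and 615 CPM at 5 dpi and 1515 and 1175 CPM at 14 dpi and was not called, nor was *Vcam1*, with ratios of 1.35 (1.11 to 1.65) and 0.91 (0.708 to 1.17).

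Of the genes kept high in resting MuSCs, 4 of 19 were lower and 1 higher at 5 dpi, and 6 of 21 were lower and 3 higher at 14 dpi. The 3 were *Meg3*, an imprinted long noncoding RNA, at 1040 CPM in hypothyroid and 380 CPM in control members (2.74, 2.31 to 3.26), *Itm2a* at 502 and 194 CPM (2.58, 2.03 to 3.32), and *Apoe* at 2000 and 409 CPM (4.89, 4.18 to 5.74), of which 1 cell held 43.1% of the hypothyroid UMIs. *Apoe* was as far apart in the other cells (5.02). The imprinted genes *H19* and *Mest* were lower at 5 dpi and higher at 14 dpi in hypothyroid than in control members. *H19* stood at 0, 341, and 52 CPM in control members and at 13.9, 44.3, and 335 CPM in hypothyroid members, and *Mest* at 13.5, 1695, and 29.4 CPM and at 69.6, 565, and 124 CPM. Both peaked at 5 dpi in control muscle, but *H19* had its highest value at 14 dpi in hypothyroid muscle, where 1 cell held 82.6% of its UMIs and the ratio turned to 0.552 (0.211 to 1.37) without members with 3 or more endothelial markers. *Mest* peaked at 5 dpi under both diets. *Mest* at 14 dpi was spread over 25 of 48 hypothyroid and 6 of 53 control members (4.23, 2.34 to 8.29), or 7 of 47 and 1 of 49 after thinning. Both *Mest* and *Meg3* were higher as well in the 13 hypothyroid members found in 1 file alone (5.39, 2.58 to 11.7, and 4.23, 3.44 to 5.21).

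Regulators of cell cycle entry and exit were next compared in these cells, which were chosen to lack a cycling signature. At 5 dpi, 5 of 13 genes were lower and 1 higher in hypothyroid members. *Cdkn1c* (p57), an inhibitor linked to exit from the cycle, stood at 1386 and 686 CPM (0.495, 0.45 to 0.544), whereas its ratio was 2.72 in the other cells. The ratio in members lay close to the limit of 0.5, with a median log2 ratio of −0.23 over all genes tested. *Cdkn1c* was found in 36 of 52 control and 72 of 105 hypothyroid members, or in 26 of 50 and 48 of 103 after thinning. *Ccnd3*, the cyclin D of differentiating myoblasts, stood at 158 and 34.6 CPM (0.219, 0.152 to 0.313), and *Rb1*, the retinoblastoma protein, at 69.5 and 18 CPM (0.259, 0.152 to 0.435). *Cdkn2a*, the p16 and p19ARF locus, was the gene that was higher, with 127 UMIs in 41 of 105 hypothyroid and 17 in 10 of 52 control members (2.98, 1.79 to 5.27), and the other cells differed alike (3.05). At 14 dpi *Cdkn1a* and *Ccnd3* (2.24, 1.21 to 4.41) were higher and 0 genes lower of 9, but *Ccnd3* was at 0.752 (0.232 to 2.37) without members with 3 or more endothelial markers and at 1.63 (0.789 to 3.56) without members with *Myog*. *Cdkn1a* was at 1.62 (1.33 to 1.97) without members with *Myog* and was then not called. Of 16 genes of DNA replication, 4 were lower at 5 dpi, such as *Mcm3* (10 against 11 UMIs), and 3 of the 4 were called in the other cells too.

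At 5 dpi, 26 control and 58 hypothyroid cells met the myogenic terms of the rule but held 2 or more cycling genes, against 2 and 7 at 14 dpi and 0 before injury. The 2 libraries of 5 dpi allowed values without a test. Of 6669 genes, 298 were higher in non-cycling than in cycling cells of control (4.47%) and 205 in those of hypothyroid muscle (3.07%), 45 of them in both (0.675%), and 205 were lower in both (3.07%). The 45 held *Myog* (5.48 in control and 6.29 in hypothyroid muscle), *Cdkn1c* (6.80 and 2.77), *Chodl* (6.42 and 7.63), *Actc1* (25.3 and 16.3), *Acta1* (12.4 and 2.56), *Dmd*, dystrophin (3.57 and 3.21), and *Ryr1*, the calcium release channel (3.10 and 2.86). The cycling genes of the rule chose these 2 sets of cells, and the cycling cells were deeper, at medians of 17957 and 20500 UMIs.

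Genes of thyroid hormone transport, activation, and response were low in number of UMIs. *Thra* stood at 40.6, 53.9, and 61 CPM in control members and at 41.8, 45.7, and 64.5 CPM in hypothyroid members, within each other's intervals at 5 dpi (0.848, 0.546 to 1.35) and 14 dpi (1.06, 0.635 to 1.79), and *Thrb* held at most 1 UMI per library. At 5 dpi 4 of 13 genes were lower and 0 higher. *Dio2* held 23 UMIs in 13 of 52 control and 8 UMIs in 7 of 105 hypothyroid members (0.139, 0.0536 to 0.321). *Klf9*, a direct target of the hormone in several tissues, stood at 466 and 193 CPM (0.413, 0.348 to 0.491), near its ratio in the other cells (0.521), *Ncoa1*, a coactivator of nuclear receptors, at 127 and 50.6 CPM (0.399, 0.284 to 0.559), and *Atp2a1*, the fast muscle calcium pump SERCA1, at 226 and 16.6 CPM (0.0736, 0.0455 to 0.114). At 14 dpi *Ncoa1* was higher (25 against 7 UMIs; 2.49, 1.05 to 6.81), *Atp2a1* lower, and *Klf9* at 0.871 (0.738 to 1.03). Before injury 4 genes of the list could be tested and 0 were called.

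**Figure D4:**
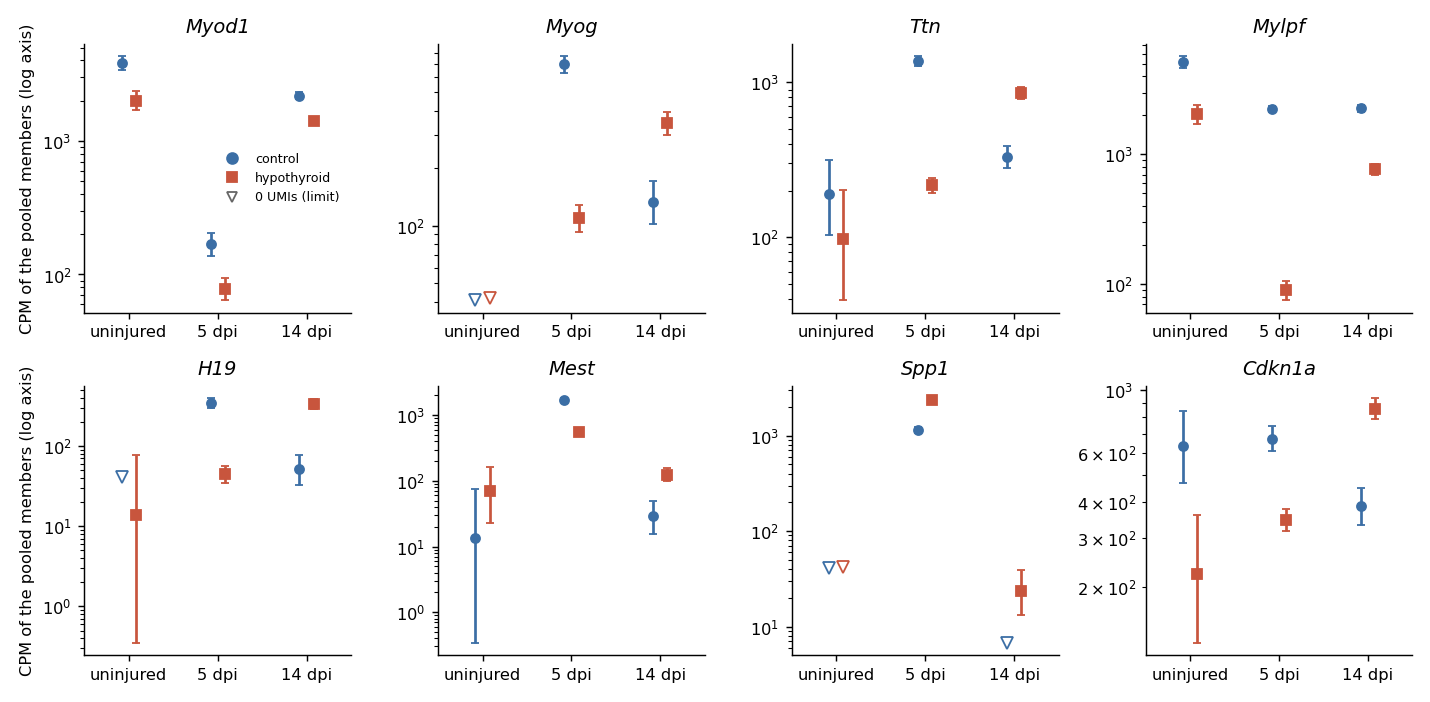
Levels of 8 genes in the pooled members of each library, in CPM on a log axis with 95% Poisson intervals (control blue circles, hypothyroid red squares; an open triangle at the level of 3 counts stands for 0 UMIs). *Myog* is highest in control muscle at 5 dpi (701 CPM) and *H19* in control muscle at 5 dpi (341 CPM) and hypothyroid muscle at 14 dpi (335 CPM), while *Spp1* is at 1144 and 2374 CPM at 5 dpi and at 23.6 CPM or less elsewhere.

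The chemokine genes *Ccl2* and *Cxcl1* were higher at 5 dpi and lower at 14 dpi in hypothyroid members. *Ccl2* stood at 136 CPM in control members and 532 CPM in hypothyroid members at 5 dpi (3.92, 3.11 to 5.02) and at 1212 and 398 CPM at 14 dpi (0.329, 0.282 to 0.382). It was found in 10 of 52 and 66 of 105 members at 5 dpi, or 4 of 50 and 31 of 103 after thinning, and 1 cell held 74.4% of the control UMIs there and 59.0% of those at 14 dpi. *Cxcl1*, which draws neutrophils, followed with 2.12 (1.71 to 2.66) and 0.274 (0.23 to 0.324). In the other cells the ratios of both lay above 1 at both days (*Ccl2* 5.34 and 1.99, *Cxcl1* 3.81 and 1.73). Without cells that also stood in another file, *Cxcl1* was at 1.77 at 5 dpi and *Ccl2* at 0.729 (0.591 to 0.891) at 14 dpi, and neither was called there. Of the chemokine list, 2 of 18 were higher and 3 lower at 5 dpi, and 0 of 17 higher and 6 lower at 14 dpi. *Cxcl12*, a retention signal for stem and immune cells, was lower at both days (0.21, 0.0871 to 0.474, and 0.281, 0.193 to 0.402).

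Of 28 matrix and niche genes, 4 were higher and 5 lower in hypothyroid members at 5 dpi, with a median log2 ratio of −0.18. Of the higher ones, *Fn1*, fibronectin, stood at 188 and 520 CPM (2.77, 2.26 to 3.42) and *Tnc*, tenascin C, at 209 and 541 CPM (2.59, 2.14 to 3.17), both part of the transient niche of activated MuSCs, with ratios of 1.03 and 1.2 in the other cells. *Fn1* was found in 80 of 105 hypothyroid and 29 of 52 control members. The 5 lower genes were *Col4a1*, *Col4a2*, *Dcn*, *Itga6*, and *Dag1*. At 14 dpi 10 of 30 were lower and 0 higher, among them *Col1a1* (6 against 282 UMIs), *Dcn*, decorin (14 against 393 UMIs), and *Fn1* (9 against 117 UMIs), and 9 of 10 tested FAP markers were lower with them. FAP markers summed to 4885 CPM in control members and 862 CPM in hypothyroid members at 14 dpi, and their part in these ratios was not tested. Of the growth factor list, *Igfbp3* (0.346, 0.256 to 0.467) was lower at 5 dpi and *Igf1r*, the receptor of IGF-1, higher at 14 dpi (154 against 76.9 CPM; 2.01, 1.35 to 3.06).

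Of 28 immediate early and stress genes at 5 dpi, 4 were higher and 0 lower in hypothyroid members, with a median log2 ratio of 0.054, against 3.32% and 10.6% of all genes tested. Among the 4 were *Fos* (612 against 256 CPM; 2.39, 2.01 to 2.87; 1.31 with all columns and 1.55 without members with *Myog*, and then not called) and the heat shock gene *Hspa1a* (291 UMIs in 26 members against 8 in 4; 14.5, 7.26 to 33.9). Of 17 interferon and antigen presentation genes, 5 were higher, with a list median of 0.27, and 1 lower. The higher ones included *Ifit3* (5.1, 2.08 to 16.2) and *Isg15* (2.08, 1.57 to 2.79). At 14 dpi the 4 that were higher were genes of MHC class II, such as *Cd74*, of whose UMIs 1 hypothyroid cell held 58.1%, and all 6 tested macrophage markers were higher with them, such as *Lyz2* (209 against 9 UMIs).

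Several genes with a large ratio at 5 dpi differed in the same direction in the other cells. *Gstp1*, a glutathione transferase, held 641 UMIs in 86 of 105 hypothyroid members and 1 UMI in control (255, 45.7 to 10105; 40.6 in the other cells), and its near copy *Gstp2* 99 UMIs and 1 UMI, so that the split between the 2 is uncertain. *Gm10076* was at 17.6 (16.9 in the other cells), *mt-Nd4l* at 15.9 (13.9), *Ube2s* at 17.1 (19.1), and *Rpl35* at 5.91 (5.31). All 9 ribosomal genes that were higher, of 32, and all 5 oxidative phosphorylation genes that were lower, of 33, were called in the other cells as well. Among the lower genes, *Wdr89* (0.0906 and 0.0788), *mt-Nd1* (0.213 and 0.272), and *mt-Nd3* (0.26 and 0.299) also differed in the same direction in the other cells. *H19* (0.13 in members and 1.69 in the other cells), *Sox11* (0.254 and 1.05), and *Lpar4*, a receptor of lysophosphatidic acid (0.169 and 1.27), did not. Without members with *Myog*, *Sox11* was at 0.701 (0.543 to 0.91) and not called, while *H19* was at 0.126 and *Lpar4* at 0.123.

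**Figure D5:**
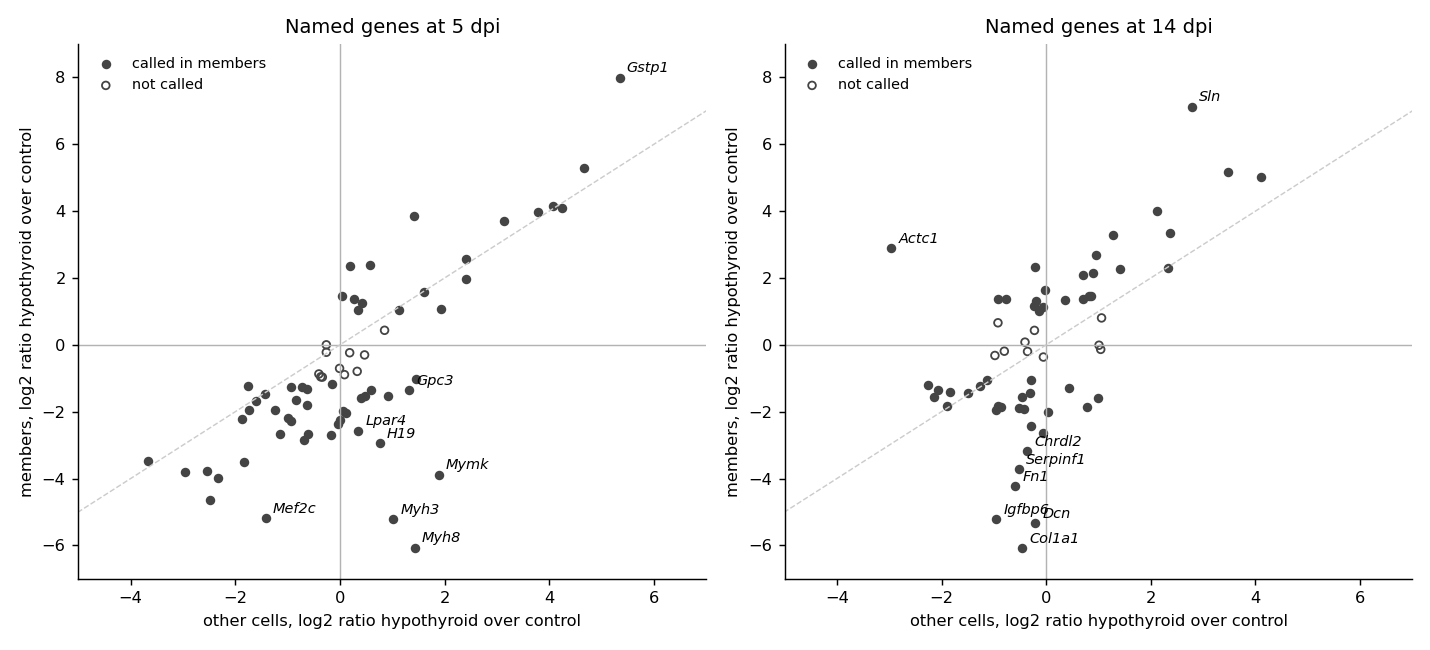
Each point is a gene named for the comparison of diets at 5 dpi (left) or 14 dpi (right), with its log2 ratio of hypothyroid to control in the other cells (horizontal axis) and in the members (vertical axis). The dashed line marks equal ratios, and filled points were called in members. Other cells are all cells that were not members, cycling myogenic cells among them. At 5 dpi *Myh8* (drawn at its bound), *Myh3*, and *Mymk* lie far below the line, with ratios of 0.0149, 0.0268, and 0.0677 in members and 2.7, 2.02, and 3.71 in the other cells.

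At 14 dpi the genes whose intervals lay farthest above 1 included *Meg3*, *Mest*, *Lgals1*, galectin 1 (2.54, 2.21 to 2.92), *Gpc3*, glypican 3 (57 UMIs in 27 members against 9 in 6; 4.41, 2.17 to 10.1), *Lgmn*, a lysosomal protease (4.79, 2.27 to 11.6), and *Ttc3* (3.12, 2.01 to 5.02; 0.982 in the other cells). Lower were *Asb5*, at 216 and 633 CPM (0.341, 0.276 to 0.419), *Wfs1*, a protein of the endoplasmic reticulum (0.161, 0.0924 to 0.268; 0.964 in the other cells), and the FAP genes *Gsn* (0.186, 0.143 to 0.239) and *Serpinf1* (0.0755, 0.0333 to 0.15). *Asb5* had been close between the diets before injury (1692 and 1809 CPM) and at 5 dpi (355 and 288 CPM). Of 5938 genes tested at both days, 46 were lower at 5 dpi and higher at 14 dpi in hypothyroid members, 16 the reverse, 60 lower at both, and 11 higher at both.

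Before injury the 25 members gave coarse values. Of 1360 genes, 171 were called (12.6%): 88 were higher (6.47%) and 83 lower (6.1%) in hypothyroid members, and 4 in all were called in the other cells as well. Of 19 immediate early and stress genes, 6 were higher and 2 lower. *Fos* held 125 UMIs in 7 of 12 hypothyroid and 14 in 6 of 13 control members (9.18, 5.27 to 17.3), 1 cell with 60% of them, but was at 0.893 (0.736 to 1.08) with all columns of each file, and *Jun* ran the other way (14 against 40 UMIs; 0.36, 0.181 to 0.676). *Vcam1* stood at 459 and 2017 CPM (0.228, 0.151 to 0.334) and *Peg3*, an imprinted gene of MuSCs, at 418 and 94.8 CPM (4.41, 1.9 to 11.9). *Nfib*, a transcription factor, was spread over 10 of 12 and 9 of 13 members at 738 and 230 CPM (3.21, 1.83 to 5.9), and *Zbtb20* over all 12 and all 13 at 1447 and 3100 CPM (0.467, 0.367 to 0.591), which turned to 1.32 (1.12 to 1.55) with all columns. The differentiation list rested on 1 cell: 7 of 11 genes were lower in hypothyroid members, but 1 control cell held 86.6% of the control UMIs, and without the top member of each library 6 of 9 were higher and 2 lower. *Mylpf* went from 0.395 (0.324 to 0.478) to 4.83 (2.96 to 8.25).

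The days were last compared within each diet. In control members, 1192 of 4944 genes were called (24.1%), 631 higher (12.8%) and 561 lower (11.3%) at 5 dpi than before injury, and in hypothyroid members 1351 of 6834 (19.8%), 498 higher (7.29%) and 853 lower (12.5%). Of these, 430 in control and 574 in hypothyroid members were called the same way in the other cells. Centered on the median gene the splits were 457 and 708 in control and 776 and 584 in hypothyroid members. *Spp1*, osteopontin, held 0 UMIs in members before injury and was found in 31 of 52 control (1144 CPM) and 82 of 105 hypothyroid members (2374 CPM) at 5 dpi, at least 28.2-fold and 56.9-fold higher over a floor of 3 counts. *Mest* was 125-fold higher in control members (22.4 to 4951), *Dag1* 40.3-fold (11.1 to 334), and *Tubb5*, a tubulin, at least 21.6-fold. In the other cells *Spp1* was also higher, 53.5-fold in control and 14.3-fold in hypothyroid muscle. The ratios of *Mest*, *Dag1*, and *Tubb5* in the other control cells were 7.96, 0.961, and 13.25. In hypothyroid members *Lgals3*, *Timp1*, *S100a4*, and *Col1a2* were at 0 UMIs before injury and at 797 to 1438 CPM at 5 dpi. They were also higher in the other hypothyroid cells, with ratios of 7.73, 103, 7.06, and 7.39. Lower at 5 dpi were *Meg3* (0.114, 0.0866 to 0.15), *Pim1* (0.165, 0.126 to 0.216; 1.02 with all columns), and *Tnfrsf12a* (0.177, 0.14 to 0.223) in control and *Asb5* (0.159, 0.13 to 0.195) and *Errfi1*, an inhibitor of the EGF receptor (0.179, 0.157 to 0.204), in hypothyroid members. Of the differentiation list, 16 of 27 genes were higher and 7 lower at 5 dpi in control members, and 5 of 21 were higher and 7 lower in hypothyroid members. The 7 lower genes were in both cases those of mature fibers, such as *Acta1* and *Mylpf*. In uninjured control muscle the top member held 86.6% of the list's UMIs. Without the top member of each library, control *Acta1* stood at 442 CPM before injury and 1299 CPM at 5 dpi. Control *Mylpf* then stood at 316 and 905 CPM, so both were higher at 5 dpi, while *Ckm* was lower (158 and 104 CPM). In hypothyroid members *Acta1* (3380.5 and 67.0 CPM) and *Mylpf* (1525 and 83.0 CPM) stayed lower. Genes of mature myofibers were lower at 5 dpi in the other cells as well. Their sums there were 26475 and 299 CPM in hypothyroid and 8731 and 1604 CPM in control muscle. Of 8 regulators of the cycle in control members 6 were higher, and of 11 in hypothyroid members 4, with *Ccnd1* and *Cdkn1c* in both counts.

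From 5 to 14 dpi, 1504 of 6426 genes were called in control members (23.4%), 765 higher (11.9%) and 739 lower (11.5%), and 1489 of 7888 in hypothyroid members (18.9%), 867 higher (11%) and 622 lower (7.89%), or 912 without cells that also stood in another file. Of the called genes, 526 in control and 643 in hypothyroid members were called the same way in the other cells. These comparisons share the 5 dpi libraries with those above. *Spp1* was at 0 UMIs in control members and stood at 23.6 CPM in hypothyroid members, and *Mest* was at 0.0173 (0.0092 to 0.0298) and *Tubb2b* at 0.0181 (0.00583 to 0.0425) of the 5 dpi level in control members. *Gstp1* (0.0283, 0.0122 to 0.0562) and *Fn1* (0.0272, 0.0124 to 0.0519) were lower in hypothyroid members. Of the differentiation list 17 of 28 genes were lower and 2 higher in control members, whereas 19 of 27 were higher and 1 lower in hypothyroid members; the difference between the diets was not tested. The genes whose intervals lay farthest above 1 were those of vessels, *Aqp1* (43.6, 21.8 to 102) and *Cd36* (29.1, 16.4 to 57.1) in control and *Cldn5* (400, 110 to 3314) and *Fabp4* (88.8, 65.7 to 123) in hypothyroid members, and all 7 endothelial markers were higher under both diets. They moved with the 17 and 22 members that held 3 or more endothelial markers, and without these *Aqp1* stood at 1 UMI in control members at 14 dpi.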

How the data were processed

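Droplet single-cell RNA libraries were made from TAM of 6 groups of mice, 3 mice pooled per library. The deposited values are log2(CPM + 1) per gene and cell, computed by the authors in Partek Flow 11.0 from Cell Ranger counts on mm39. UMIs were recovered from the steps of these values (99.934% whole within 0.02 UMI), so the deposited log2 values were turned back into counts. Of 20269 columns, the 11207 of the first run of barcodes in each file were used, and the 9062 later columns, of which 1680 cells stood in files of 2 conditions, entered 1 alternative only. First-run libraries held 2283740 to 23496509 UMIs over 12436 genes, and cells had medians of 3634 to 8055 UMIs. Members had 591 to 40071 UMIs, a range wider than the filter the study prints. No doublets were removed.

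Members' UMIs were summed per library. With 1 library per group there was no test between conditions: ratios of CPM carry exact conditional binomial 95% intervals, levels Poisson and shares Clopper-Pearson intervals. Genes with 20 UMIs or more in both pools together were tested for a call. Members and all other cells were compared over 6 libraries with limma 3.58.1 on log2(CPM + 6.96), an offset of 0.5 UMI of the smallest pool, with the library as block and Benjamini-Hochberg adjustment. Shares of members with a UMI are unthinned unless a value after thinning each cell to 2000 UMIs is given. Named genes had at least 50 UMIs in the higher pool, in at least 10 cells or 25% of cells, with no cell over 25%, ranked by the bound of the interval nearest 1 (8 each way per diet comparison, 5 per day comparison), plus 15 genes from limma and genes of 28 lists; not all genes that met the rule are reported here. Members, lists and rules were chosen with earlier results of these data known, and alternatives that left out endothelial-marker cells, cells with *Myog*, the top member, or copied cells were added after seeing the data. The calls were tested on simulated data. For the ratios between libraries these carried counting error alone, with no spread between cells or mice. They could not show false calls that arise from single cells or from mice. Python 3.11.15, numpy 2.4.6, scipy 1.17.1, pandas 2.3.3, matplotlib 3.10.9, and R 4.3.3 were used.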

Additional observations from a re-analysis of the deposited data

Results flagged for a closer look

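Several genes were past 2-fold in opposite directions between hypothyroid and control members at the 2 days after injury. With 1 library per group the difference between the days was not tested. Lower at 5 dpi and higher at 14 dpi were *Myog* (0.156 and 2.58), *Mymx* (0.192 and 10.1), *Ttn* (0.157 and 2.58), *Neb*, the thin filament protein nebulin (0.286 and 2.54), *Tnnt2* (0.348 and 5.02), *Actc1* (0.0876 and 7.4), *Myh3* (0.0268 and at least 36), and *Myh8* (at most 0.0149 and at least 32.5), the bounds being set by a floor of 3 counts. The same order was found for *H19* (0.13 and 6.45), *Mest* (0.333 and 4.23), *Gpc3* (0.39 and 4.41), *Ccnd3* (0.219 and 2.24), and *Ncoa1* (0.399 and 2.49). The reverse order was found for *Ccl2* (3.92 and 0.329), *Cxcl1* (2.12 and 0.274), *Fn1* (2.77 and 0.0535), *Hspa1a* (14.5 and 0.424), and *Aspn*, a matrix proteoglycan (5.28 and 0.266). *Aspn* at 5 dpi had a ratio under 1 with at least 3 rule genes, with no cycling gene, with all columns, and without members with 3 or more endothelial markers (0.678 to 0.884). Without the last, *Ttn*, *Ccnd3*, and *H19* were under 1 at 14 dpi (0.937, 0.752, and 0.552), *Ttn* and *Actc1* were so with all columns (0.818 and 0.877), and *Hspa1a* was above 1 without copied cells (1.45). At 14 dpi 1 hypothyroid cell held 93.5% of the *Myh3*, 93.6% of the *Myh8*, and 82.6% of the *H19* UMIs. In the columns that follow the first run of barcodes in the files, 190 cells met the rule for members, and they entered the comparisons only in the values given for all columns of each file.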

How the results depend on the processing

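No paired analysis was possible because each diet and day had 1 library and the labels carry no replicate number that links them. With at least 3 rule genes the uninjured share ratio was 7.64 (7 against 2 cells), the control 5 dpi over uninjured count went from 1192 to 404, and the count of genes that differed between members and other cells from 1400 to 508. That count was 274 with a pseudocount of 5 UMIs and 1168 to 1267 with 1 library left out. Without the filter on UMIs, 315 genes were called before injury (171 with it) and 803 at 14 dpi (527 with it). With all columns of each file the counts were 681 before injury, 871 for hypothyroid 5 dpi over uninjured, and 911 for control 14 over 5 dpi, and without copied cells 912 for hypothyroid 14 over 5 dpi. With all columns the direction turned before injury for *Ftl1* (0.637), *Zbtb20* (1.32), *Fos* (0.893), *Dusp1* (0.401), *Mylpf* (1.08), and *Igfbp5* (2.34), at 5 dpi for *Aspn* (0.678), at 14 dpi for *Ttn* (0.818), *Actc1* (0.877), and *Sln* (0.937), and for *Pim1* in control 5 dpi over uninjured (1.02). With at least 3 rule genes it turned for *Igfbp5* (1.62) before injury and *Aspn* at 5 dpi (0.884), and with no cycling gene for *Aspn* (0.77). Without members holding 3 or more endothelial markers it turned for *Aspn* at 5 dpi (0.847), *Ttn* (0.937), *Ccnd3* (0.752), and *H19* (0.552) at 14 dpi, and *Aqp1* in control 14 over 5 dpi (0.579). Without copied cells it turned for *Igf1* (1.11) and *Hspa1a* (1.45) at 14 dpi. The balance of the differentiation list turned before injury without the top member (8 called, 6 of them higher) and at 14 dpi without members with *Myog* (10 called, all lower). The cause of these changes was not tested. With all columns the uninjured pools held 21 hypothyroid and 48 control members, against 12 and 13 in the first runs. Some of the added columns also stand in a file of another condition. Values with all columns can therefore mix diets and days, and cannot be read as a check on uninjured muscle alone. The low count of members, 12 and 13 before injury, limits what could be called there.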

Other observations

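Glycolytic genes were not described above. Of 17 tested at 5 dpi, *Eno1*, an enolase, was higher in hypothyroid members (264 against 115 CPM; 2.3, 1.77 to 3.03). The muscle forms *Eno3* (73.4 against 228 CPM; 0.322, 0.247 to 0.42) and *Pfkm* (8 against 17 UMIs; 0.188, 0.07 to 0.458) and *Tpi1*, triose phosphate isomerase (88 against 214 CPM; 0.411, 0.319 to 0.532), were lower, and 1 control member held 42% of the control UMIs of *Eno3*, 64.7% of those of *Pfkm*, and 38.2% of those of *Tpi1*. In the other cells *Eno1* (2.29), *Pfkm* (0.423), and *Eno3* (0.489) were past 2-fold in the same direction. When each member was weighted equally, *Eno1* was higher and *Eno3* lower, and *Pfkm* and *Tpi1* were not called. Of 14 glycolytic genes tested at 14 dpi, *Hk2*, a hexokinase, was lower (219 against 475 CPM; 0.461, 0.369 to 0.574). Without the cells that also stand in another file *Hk2* was not called, and *Eno1* was higher and *Tpi1* and *Eno3* lower among 13 tested. At that day *Rgs5*, a mural cell gene, had 1152 UMIs in 22 of 53 control and 518 UMIs in 16 of 48 hypothyroid members.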
